A study of Beta vulgaris with 6 samples.

Results

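The sequences described here are predicted open reading frames of sugar beet (Beta vulgaris altissima) contigs from the Cot fraction whose probes gave a signal in every shoot apical meristem studied. Their probes carry names that begin with O. A probe was included when at least 1 of its spots was well above background, positive and significant, not an outlier and not saturated on all 8 arrays. Of 24555 designed O probes, 924 (3.76%) met this rule, and the array held 53752 probes in all. For comparison, 19764 of the 29094 probes designed on public sequences, whose names begin with P (67.9%), met it. The assignment of the letter O to the Cot fraction rests on the 5 O probes that the study pairs with a contig name.

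Meristems of 6 biennial genotypes, numbered 1, 2, 3, 4, 5 and 7, were compared. Genotypes 1, 4 and 7 have a low capacity to bolt (bolting resistant) and genotypes 2, 3 and 5 a high capacity (bolting sensitive). All plants spent 8 weeks at 22 °C, with 16 h of light a day, and then 9 weeks at 4 °C, and meristems were taken directly after the cold, so that no plant without cold is included. Total RNA from 1 meristem per genotype was labelled with Cy3, and the RNA of genotypes 3 and 7 was hybridized to 2 arrays each. With 1 meristem per genotype, the genotype cannot be told apart from the individual plant. The Cot fraction was made from leaf DNA of the resistant genotype that the study calls R1, and no source used here says which of genotypes 1, 4 and 7 that is.

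Cot fractionation separates DNA by the speed at which denatured strands find their partner. Repeated sequences reassociate early, while single- and low-copy sequences, which hold most genes, stay single stranded for longer and can be collected. An open reading frame predicted on such a contig need not be a gene, so that a signal on its probe is at most a record of transcription and not of a protein. The paper reports that only a small part of its contigs and reading frames mapped to the sugar beet genome. It holds that many of the predicted frames were not real. Which sequence gave the signal of a probe was not tested. The shoot apical meristem is the group of dividing cells from which stem and flowers form after vernalization.

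Each level is the log2 intensity minus the 75th percentile of its array, so that 0 is the intensity below which 75% of the non-control spots lie. Duplicate arrays were averaged. The 75th percentile of intensity lay between 288.4 and 422.6 over the arrays, the lowest intensity well above background between 17.3 and 30.2, and 0 spots were saturated. The number of genotypes, 3 in each class, limits the precision. The marker genes of the meristem could not be checked, as their probes are not named in the sources used here.

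Most Cot fraction probes gave no signal that passed the rule. Of the designed O probes, 20843 (84.9%) passed on 0 arrays and 1614 on 1 array, while 187 passed on 7 arrays and 924 on 8. Of the P probes, 5440 (18.7%) passed on 0 arrays and 784 on 7. On a single array, the number of O probes detected ranged from 1420 (5.78%, genotype 2) to 1960 (7.98%, the first array of genotype 7). Some O probes failed on every array of 1 genotype and passed on all arrays of the others. They numbered 43 for genotype 1, 41 for genotype 2, 22 for genotype 3, 28 for genotype 4, 11 for genotype 5 and 5 for genotype 7. The P probes numbered 101, 176, 195, 176, 98 and 53 in the same order. Genotypes 3 and 7 had to fail on both of their arrays to be counted here, which lowers their numbers. A further 19 and 25 O probes failed only on the first or only on the second array of genotype 3. For genotype 7 these numbers were 6 and 14. The P probes numbered 66 and 72 for genotype 3, and 17 and 78 for genotype 7. Since every member was detected in all genotypes, transcripts below the limit in 1 genotype are outside the 924.

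The members nearest to the limit of the rule were O12439, O7541 and O23358. Their lowest intensities, 19.2 to 21.1, were all on the second array of genotype 7. Just outside were O2829, which failed on the second array of genotype 3 and had its lowest intensity, 34.5, on the first array of genotype 7, and O23935, which failed on the first array of genotype 3 with its lowest intensity of 34.1. O10870 was excluded because its spot was a non-uniformity outlier on the array of genotype 1. There it read 10.03 on the log2 scale, against −1.72 to −0.98 in the other genotypes. These values chose the members and carry no test.

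The detected Cot fraction probes were mostly dim. Their mean level over the genotypes had a median of −1.75 (quartiles −2.67 and −0.22), against 1.09 (quartiles −0.64 and 3.30) for the P probes. A mean level below −2 was recorded for 405 members (43.8%) and 8.39% of P probes. A level above 0 was recorded for 199 members (21.5%) and 65.6% of P probes. A level of 6 or more was reached by 37 members (4.00%) and by 8.41% of P probes. Only at the very top was the order different, where a level of 9 or more was reached by 15 members (1.62%) and by 144 P probes (0.729%). The intensity of a spot depends on the probe as well as on its transcript, and in whole meristems fewer cells with a transcript and less RNA per cell cannot be told apart.

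**Figure D1:**
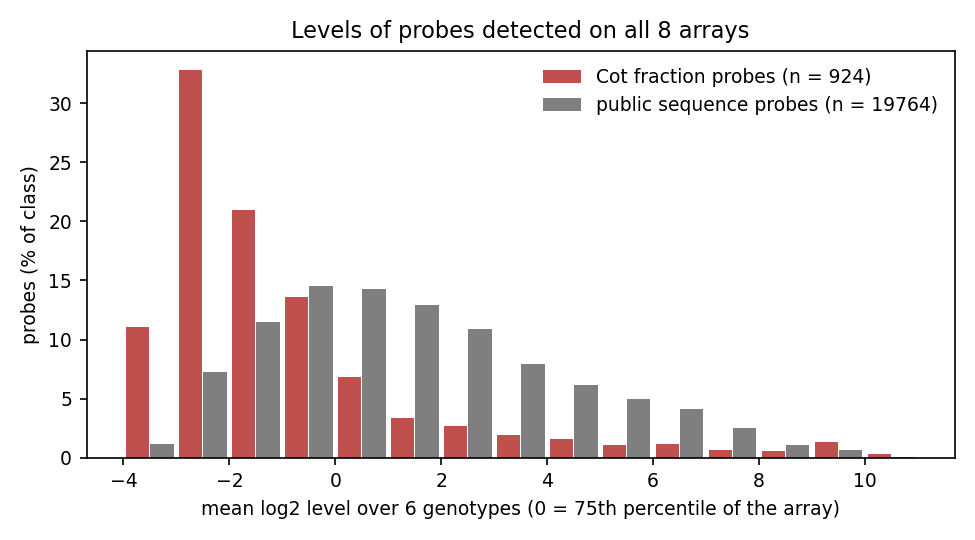
Share of probes (y axis, % of each class) by mean log2 level over the 6 genotypes (x axis, bins of 1), for 924 Cot fraction probes and 19764 public sequence probes detected on all 8 arrays. The Cot fraction probes peak between −3 and −2, where 32.8% of them lie against 7.22% of the public sequence probes.

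Of the 5 brightest members, 3 lay close together in probe number. O10673 had a mean level of 10.29, with 10.17, 10.20, 10.18, 10.66, 10.31 and 10.24 in genotypes 1, 2, 3, 4, 5 and 7. O10695 (10.17), O10694 (10.12), O13070 (9.94) and O22929 (9.77) followed. All 5 varied little, with a range over genotypes between 0.42 and 0.70. Genotype 4 was the highest in each of them, although in 3 of the 5 after quantile normalization. Probe numbers 10001 to 11000 held 73 members, 15 of them with a level over 6 and 8 with a level over 9. Numbers 13001 to 14000 held 40 members, of which 7 exceeded 6 and 4 exceeded 9. In the other windows of 1000 numbers there were 25 to 67 members, and 0 to 4 of them exceeded 6.

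**Figure D2:**
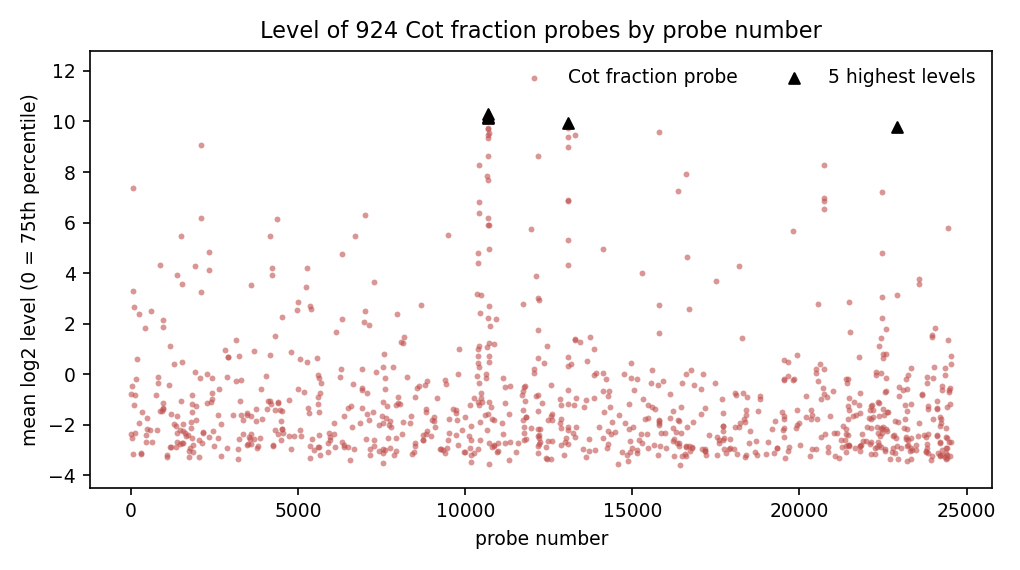
Mean log2 level over the 6 genotypes (y axis) of each of the 924 Cot fraction probes against its probe number (x axis), with the 5 highest levels as triangles. Of the 15 probes above 9, 8 lie between 10001 and 11000 and 4 between 13001 and 14000.

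Members often had members as neighbours. In all, 305 (33.0%) lay in 133 runs of consecutive numbers. Of the longest runs, both of 6 probes, 1 was O10692 to O10697. Its mean levels were 7.67, 9.72, 10.12, 10.17, 2.23 and 9.33, so that O10696 was far dimmer than the probes on either side. In the run O13082 to O13087 the mean levels spanned −2.21 to 9.73. The profile over genotypes was more alike between neighbours than between members in general. For 172 pairs of adjacent members, Pearson's r over the 6 genotypes had a median of 0.48, and 15.1% of the pairs had an r of at least 0.9. Members a distance of 2 apart had a median of 0.16, equal to the median of all 426426 pairs of members (0.16). Adjacent P probes had a median of 0.031. These correlations are a description over genotypes that share the same arrays. Whether adjacent numbers are reading frames of 1 contig, or of both strands of 1 contig, is not given in the sources used here.

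Repeat arrays set the measurement error. The SD per array, from the duplicates, was 0.19 for genotype 3 and 0.20 for genotype 7 over the members, against 0.096 and 0.097 over the P probes. In each of the duplicated genotypes, 6 members (0.649%) differed by more than 2-fold between the arrays.

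With the scaling used here, variation among genotypes was as wide for Cot fraction as for public sequences at the median. The range, the highest minus the lowest of the 6 genotype levels, had a median of 0.88 for the members and 0.87 for the P probes. It exceeded 2-fold in 392 members (42.4%), beside 42.5% of P probes and 45.7% of all 22314 probes that passed the flags in at least 1 bolting class. A range over 3 on the log2 scale, that is 8-fold, was found in 51 members (5.52%) and 6.53% of P probes. A range over 5 was found in 17 (1.84%) and 1.56%. The likeness of the classes at 2-fold depended on the processing. The 392 members and 8407 P probes over 2-fold became 165 and 6544 with normexp background correction. With arrays scaled to their median they became 341 and 9689.

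The limma F test asked whether the 6 RNA samples differed beyond the spread of the duplicate arrays. Its adjusted p was below 0.05 for 668 members (72.3%), against 89.9% of all probes tested and 91.5% of P probes. With a range over 2-fold as well, 359 members (38.9%) passed, beside 44.5% of all probes tested. The larger array error of the dim members stands beside this lower share, and its part in it was not tested. As the test holds no variation between plants, it separates RNA samples and not genotypes.

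The range depended on the level. Among the 43 members with a mean level from 2 to 4, 10 (23.3%) had a range over 3, against 8.12% of P probes of that level. From 4 to 6 it was 6 of 25 members (24.0%), against 9.31%. Most of these members share the profile described below. They are O23573, O7970, O16709, O23574, O4231, O1364 and O8680 in the first bin, and O6702, O4175 and O14118 in the second. The 2 bins are thus no separate result. At lower levels the shares of members and P probes were 1.32% and 1.75% (−3 to −2), 5.15% and 5.23% (−2 to −1), and 9.52% and 6.41% (−1 to 0). From 8 to 11, 0 of 20 members varied by more than 2-fold, against 26.7% of P probes. The bins from 6 to 8 (17 members) and above hold few members.

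**Figure D3:**
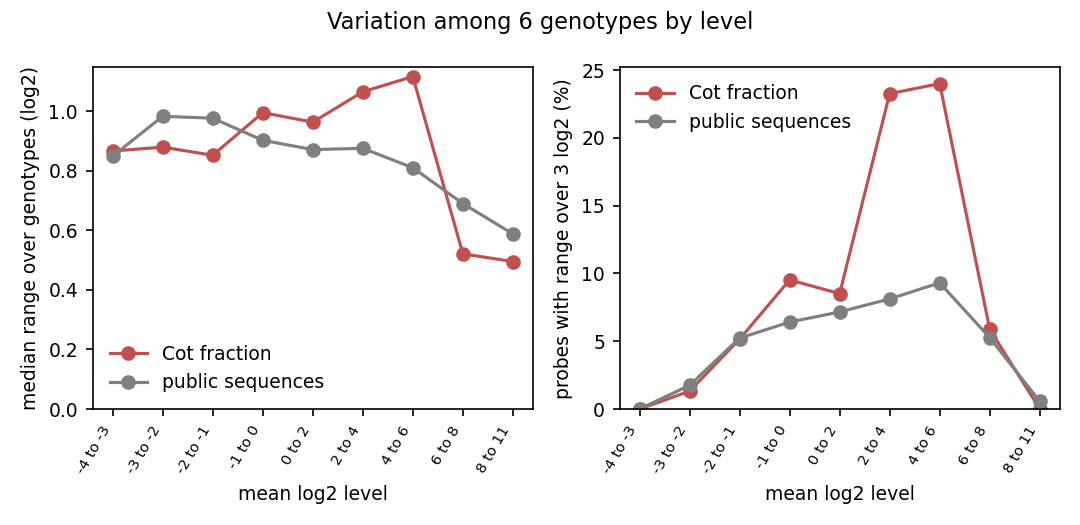
Median range over the 6 genotypes (left, log2) and percentage of probes with a range over 3 (right) by bin of mean log2 level, for Cot fraction and public sequence probes detected on all arrays. In the right panel the Cot fraction reaches 23.3% and 24.0% between levels 2 and 6, where public sequences lie at 8.12% and 9.31%; these 2 Cot fraction bins hold 43 and 25 probes, and the bin from 6 to 8 holds 17.

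The members that varied most shared 1 profile, low in resistant genotype 1 and highest in sensitive genotype 3. Over the 8 arrays, O23573 had levels of −3.21 in genotype 1, 4.15 in genotype 2, 6.26 and 6.35 on the arrays of genotype 3, 4.62 in genotype 4, 5.34 in genotype 5, and 4.16 and 4.24 on the arrays of genotype 7. Genotype 1 thus lay far below all others, and the duplicates were nearly equal. The range of 9.51 was the widest of all members, and as O23573 was picked for it, no test is given. Its neighbour O23574 read −2.56, 4.26, 6.40, 4.71, 5.43 and 4.26 in genotypes 1, 2, 3, 4, 5 and 7. O7970 read −3.70, 2.10, 5.68, 4.56, 3.79 and 1.84 in the same order. O16709 read −3.79, 2.62, 5.47, 4.20, 4.21 and 2.88. Resistant genotype 4 lay among the sensitive genotypes in these probes, so that the order did not follow the bolting class.

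O4231, O1364, O6702, O18270, O4175 and O8680 complete the 10 widest ranges, from 7.59 down to 6.63, and each had the same lowest and highest genotype. The brightest of them, O6702 and O4175, were 0.92 and 1.07 in genotype 1 and 7.88 and 7.88 in genotype 3.

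**Figure D4:**
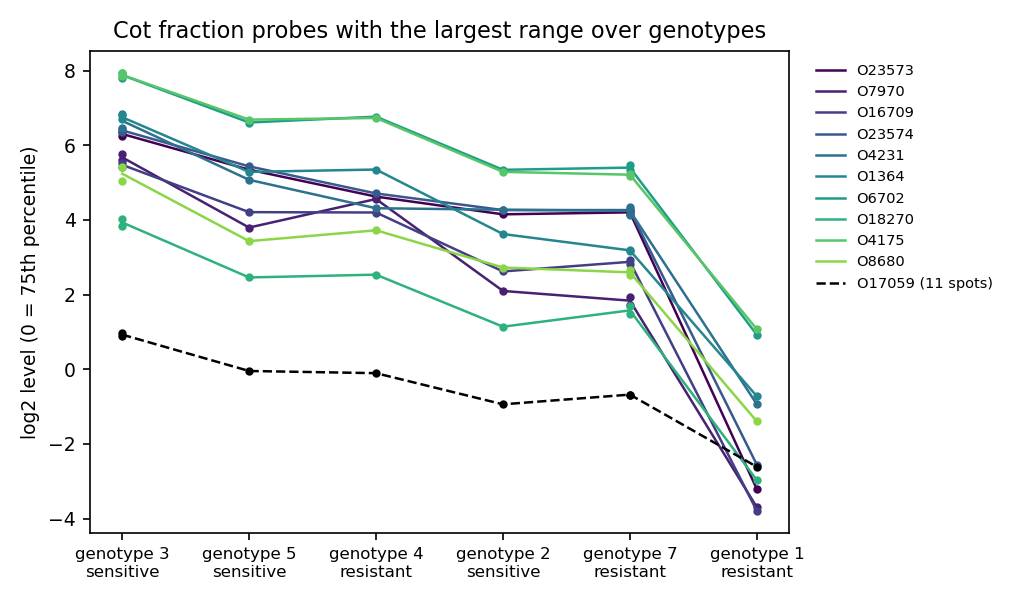
Log2 level (y axis) in each genotype (x axis, with bolting class) of the 10 Cot fraction probes with the widest range, and of O17059 (dashed), which was spotted 11 times. Points are single arrays and lines join genotype means; every line is highest in genotype 3 and lowest in genotype 1, with O23573 falling from 6.30 to −3.21.

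The profile was counted over all members by its likeness to O23573, with a Pearson's r of at least 0.95 over the 6 genotypes and a range above 2-fold, limits set after the values were seen. Of the 924 members, 13 (1.41%) met this, O23573 included, against 33 P probes (0.167%). Among probes with a range over 5, it was 12 of 17 members (70.6%) and 6 of 308 P probes (1.95%). As O23573 was picked as the member with the widest range and is counted itself, these shares favour the members. They describe the members and carry no test. Adjacent numbers such as O23573 and O23574 (r = 0.9998) may belong to 1 contig, which is not known. The counts of probes may therefore stand for fewer transcripts. Some P probes met the limits without genotype 3 being highest, such as P20737 (genotype 4) and P4525 (genotype 5). In all 13, genotype 3 was highest and genotype 1 lowest. As likeness to O23573 chose them, a lowest genotype 1 was given in advance and is no support for the profile. Both also held under every scaling and with either array of the duplicated genotypes. With genotype 1 so far below, the scaling could hardly change its place. Genotype 3 exceeded genotype 1 by a median of 6.96 (4.83 to 9.51), genotype 2 by 2.54 (2.11 to 3.58), genotype 7 by 2.41 (1.91 to 3.84), genotype 4 by 1.29 (1.03 to 2.34) and genotype 5 by 1.27 (0.85 to 1.88). The duplicate arrays of these probes differed by a median of 0.12 and at most 0.38. Genotypes 4 and 5 were thus next to each other in the order, as were genotypes 2 and 7, while genotype 1 stood far below.

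Of the 51 members with a range over 3, genotype 3 was highest in 31 (60.8%), genotype 1 lowest in 28 (54.9%), and both held in 27 (52.9%). Of the P probes with such a range, the shares were 22.1%, 17.9% and 6.66%. The widest ranges rested on genotype 1. Without it, 25 members had a range over 3 and 1 had a range over 5, in place of 51 and 17. For P probes the numbers went from 1291 to 1079 and from 308 to 251.

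Some probes that the rule left out because they failed it in genotype 1 only are given as a description, since that failure favours a low genotype 1. Of 43 such O probes, 20 (46.5%) met the same limits of likeness to O23573, and of 101 such P probes 28 (27.7%) did, with the recorded signal of genotype 1 in r. No support for the profile is drawn from these shares. O22201 read 2.99, 6.16, 4.93, 4.86 and 3.23 in genotypes 2, 3, 4, 5 and 7. Genotype 1 was set to the weakest intensity well above background on its array, or to the recorded intensity where that was stronger. On this basis O22201 was 1347-fold higher in genotype 3. O6293 was 1056-fold higher by the same measure. The neighbours O24040 and O24041 were 699-fold and 590-fold higher in genotype 3, with levels of 4.66 and 4.57 in genotype 4 and only 2.75 and 2.71 in genotype 5. For O24040 and O24041 the recorded intensity of genotype 1 was used, which failed the rule although it lay above that weakest intensity. These folds are therefore no strict lower bounds.

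A probe spotted many times came near the profile and gave a direct measure of spot error. Of 21 O probes with 11 spots, 3 were members. O17059 read −2.61 in genotype 1, −0.94 in genotype 2, 0.89 and 0.97 in genotype 3, −0.11 in genotype 4, −0.047 in genotype 5, and −0.68 and −0.68 in genotype 7. The SD between its spots on 1 array was 0.066 to 0.12, and the SD between genotypes was 1.19. Its r with O23573 was 0.94. The other members, O136 and O148, had SDs between genotypes of 0.38 and 0.34, and SDs between spots of 0.12 to 0.37 and 0.11 to 0.18.

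Members in which 1 genotype stood more than 2-fold from the next were also counted, from the same values. Genotype 3 was alone highest in 28 members (3.03%) and in 0.491% of P probes. Genotype 1 was alone lowest in 23 members (2.49%) and in 1.01% of P probes. The 13 members like O23573 are all among these 23, so that the count is no separate support for the profile. For the other genotypes, and for the opposite directions, the counts lay between 2 and 9 members (0.216% to 0.974%). The shares of P probes there lay between 0.420% and 1.37%.

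**Figure D5:**
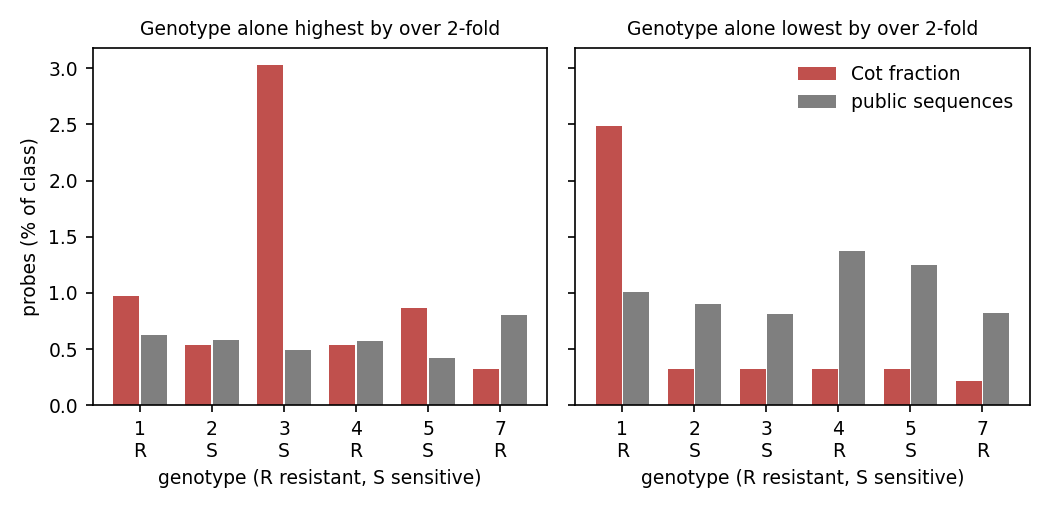
Percentage of Cot fraction and public sequence probes (y axis) in which 1 genotype (x axis; R, bolting resistant; S, bolting sensitive) was highest (left) or lowest (right) by more than 2-fold from the next genotype. For Cot fraction probes the tallest bars are genotype 3 alone highest (3.03%) and genotype 1 alone lowest (2.49%).

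Small shifts common to many members followed the scaling. The median level of the members was −1.84, −1.77, −1.70, −1.54, −1.67 and −1.98 in genotypes 1, 2, 3, 4, 5 and 7. Genotype 4 was the highest in 40.7% of the members and genotype 7 the lowest in 38.6%. With arrays scaled to their median, genotype 4 was the highest in 27.5%, and genotype 5 in place of genotype 7 was most often the lowest, in 39.6%. No order of the genotypes is drawn from them.

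At the other end, some members hardly varied. O23978 read between 1.46 (genotype 3) and 1.52 (genotype 1), a range of 0.054. O23335 and O15783 had ranges of 0.16 and 0.16. These 3 were picked for the smallest ranges on the same arrays, so that no test is given for them.

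Bolting class was compared with limma over the 3 resistant and 3 sensitive genotypes. The p-values measure the spread between 3 single meristems a class. The median difference, resistant minus sensitive, was 0.017 over the members and 0.0090 over all probes tested, and 0.14 and 0.13 with arrays scaled to their median. After Benjamini–Hochberg adjustment over the 22314 probes, 0 members passed with limma (lowest adjusted p = 0.878), against 0.0807% of all probes tested. Of the members, 13 (1.41%) passed the unadjusted limma p of 0.05 at any fold change, against 3.39% of all probes tested.

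The means of the classes differed by more than 2-fold in 44 members, 3 higher in the resistant and 41 higher in the sensitive genotypes. Among P probes the numbers were 475 and 479. O23573 and all members counted above as like it were among the 41, so that these partly restate that profile. For O23573 the difference was −3.39, with a limma standard error of 2.15 (adjusted p = 1.00), and the classes overlapped. Without genotype 1 the numbers of members were 7 and 30, and without genotype 3 they were 6 and 36. For P probes they were 767 and 683 without genotype 1, and 572 and 503 without genotype 3. The values of the classes did not overlap in 49 members (5.30%), against 7.3% of all probes tested. Of these, 17 were higher in the resistant genotypes (1.84%, against 3.7%) and 32 in the sensitive genotypes (3.46%, against 3.6%). In a single probe, the exact permutation test of 3 against 3 cannot give a two-sided p below 0.1.

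At the unadjusted limma p and the 2-fold limit of the study, 3 members (0.325%) passed, against 1.74% of all probes tested. None was higher in the resistant genotypes (0.748% of all probes tested) and 3 were higher in the sensitive genotypes (0.995%). Leaving out genotype 1 raised this number to 19, leaving out genotype 3 to 12, and leaving out genotype 2 or genotype 5 to 6. The shares of all probes tested with the same genotypes left out are not given here. These rises are therefore not read as a result about the members.

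O10432, which the study pairs with reading frame contig02039_4, without a significant database hit, was the member with the smallest limma p of these 3. It read −2.17, −2.40 and −3.01 in resistant genotypes 1, 4 and 7, and −1.56, −1.18 and −0.96 in sensitive genotypes 2, 3 and 5. Each sensitive genotype lay above each resistant genotype. The difference was −1.29 (limma standard error 0.29, adjusted p = 1.00). It was −0.79, under the 2-fold limit, with normexp background correction, and it did not pass the unadjusted limma p with all 8 arrays and the genotype as a random block. The study chose this probe on these samples. The members most like it were O22263 and O22304 (r = 0.95 and 0.94 over 6 genotypes).

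O7119 read 2.44, 1.07 and 0.56 in genotypes 1, 4 and 7, and 2.63, 2.50 and 2.55 in genotypes 2, 3 and 5. Genotype 1 lay just under the sensitive genotypes. The lack of overlap rested on the mean of the duplicates, as the first array of genotype 3 read 2.42, below genotype 1. The classes differed by −1.20 (adjusted p = 1.00 with limma; standard error 0.48). It did not pass under 12 of 19 alternatives, among them leaving out any genotype except genotype 1. O7642, named after its values were seen because the classes overlapped, read −1.88, −3.37 and −2.89 in genotypes 1, 4 and 7, and −0.66, −2.08 and 0.44 in genotypes 2, 3 and 5. The classes differed by −1.95 (adjusted p = 1.00 with limma; standard error 0.71). It did not pass under 10 of 19 alternatives.

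The other 4 Cot fraction probes that the study pairs with a reading frame are not members. O4676 (contig00833_21, annotated by the study as an aspartate kinase, an enzyme of the aspartate family of amino acids), O6110 (contig01111_2), O24167 (contig03500_23) and O21527 (contig05572_11) were detected on all 4 arrays of resistant and 0 of 4 arrays of sensitive genotypes. O6110 read −2.17, −1.98 and −2.65 in genotypes 1, 4 and 7. The mean of these lay 3.16-fold above the weakest intensities well above background on the sensitive arrays. For O4676, O24167 and O21527 the same measure gave 1.35-fold, 1.61-fold and 1.16-fold. The detection limit differs between spots, so that these are no strict lower bounds. All 4 entered limma only through the resistant arrays, so that the filter itself favours higher resistant values. No p-value is given for them. All 4 were chosen by the study on these samples.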

How the data were processed

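For each array the authors deposited the output of Feature Extraction 10.7.3.1, of which the background-subtracted, detrended Cy3 intensity and its quality flags were used. A deposited series table gives log2 values that the authors scaled by the 75th percentile of each array and centred on each probe's median. Within 0.05, it matched the first arrays of genotypes 3 and 7 for 99.99% of values, and served as an alternative. Here, the 75th percentile of log2 intensity over non-control spots was subtracted on each array. Spots of 1 probe were averaged, then duplicate arrays. Probes that passed all flags on all arrays of at least 1 bolting class (22314) entered limma 3.58.1 (R 4.3.3; lmFit, eBayes), as resistant minus sensitive on 6 genotype values and as an F test over 6 genotypes on 8 arrays, with Benjamini–Hochberg adjustment. The scripts were tested on simulated data. No background level of a control group exists, so P probes by the same rule are the comparison.

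Named probes were the 5 O probes paired with a reading frame, members with several spots, the 5 brightest, the 10 widest and 3 narrowest ranges, those past the class thresholds without overlap, the longest run, and 3 probes on each side of the detection limit. The members and lists were chosen with earlier results of these data known. Alternatives were median scaling, quantile normalization, normexp (offset 50), a signal floor, other filters, single arrays of genotypes 3 and 7, an intensity trend, the methods' t-test on the same 6 values, a random block and leaving out each genotype. All arrays share 1 slide, so that no slide effect could be fitted. Probe sequences and genome positions were not used here.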

Additional observations from a re-analysis of the deposited data

How the results depend on the processing

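With normexp background correction, the median level of the members minus that of the P probes was −2.20 in place of −2.84, the range exceeded 2-fold in 165 members in place of 392, and it exceeded 3 on the log2 scale in 30 in place of 51. For P probes, the range exceeded 2-fold in 6544 in place of 8407 and 3 on the log2 scale in 920 in place of 1291. With single genotypes left out, the number of members with a range over 3 ran from 25 (without genotype 1) to 48. The number of members past the unadjusted limma p and the 2-fold limit between bolting classes was 3. It was 1 with normexp, 1 with the first array only of genotypes 3 and 7, 1 with the methods' t-test with equal variances, 1 in its Welch form, 1 with the authors' log2 table, and 0 with the genotype as a random block. It ran from 3 to 19 with single genotypes left out, without the matching shares of all probes tested. After adjustment it was 0 under each alternative run. The number of members was 924, and 926 to 1223 under other detection rules or with genotypes left out. The limma F test gave 496 to 743 members. Genotype 1 was alone lowest in 21 to 24 members, genotype 3 alone highest in 20 to 36, and the median r of adjacent members was 0.43 to 0.49, under alternatives chosen after seeing the data. The cause of these differences was not tested. Dim probes limit the detection, as 405 members had a level below −2. No paired analysis was possible because the replicate numbers follow accession order and pair no samples. No fit with the slide was run, for there was 1 slide.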
